A study of Mus musculus with 2 samples.

Results

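Colony-stimulating factor receptors and growth factors were examined as 8 genes chosen by symbol: the ligand gene Csf1 and the receptor genes Csf1r, Csf2ra, Csf2rb, Csf2rb2, Csf3r, Kit and Flt3. Of these, 7 had a probe set named in the platform annotation, out of 19505 genes so named. Csf2rb2 was not analysed here, because no probe set carried its name in the annotation used. Expression was measured on whole-transcript arrays in macrophages grown from mouse bone marrow in DMEM with 10% fetal bovine serum, and M-CSF, the protein made from Csf1, was given on day 0 and again on day 3 (25 ng/mL each time); cells were used from day 5. The 2 groups, of 1 array each, were macrophages labelled LysM (+);MC4RTB/TB, LysM(+) for short, and macrophages labelled MC4RTB/TB, TB/TB for short. Both groups were homozygous for the TB allele of MC4R, the melanocortin 4 receptor gene, and differed in the labels by LysM alone. In background terms, a TB allele is known as one whose transcription a removable cassette blocks, and LysM (Lyz2) is widely used to drive Cre recombinase in macrophages and neutrophils; the labels spell out neither, and they give no age and no number of animals. All values are expression values made by the authors with RMA. This method corrects background, normalizes between arrays and summarises the probes of a probe set. The values were read as log2. The sources do not state the log base, so every fold rests on that reading. All differences are LysM(+) minus TB/TB. Each group had 1 array, which leaves no spread between replicates and allows no test; every difference describes these 2 cultures alone.

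The proteins encoded by these genes control how many myeloid cells are made and which kind. CSF1R binds M-CSF and IL-34 and is the receptor on which most macrophages depend for survival and division; it belongs, with KIT, the stem cell factor receptor, and FLT3, to the receptor tyrosine kinases of the PDGF receptor class. The GM-CSF receptor is built from a specific alpha chain, encoded by Csf2ra, and a common beta chain, encoded by Csf2rb, that also serves the IL-3 and IL-5 receptors and signals through the kinase JAK2 and the transcription factor STAT5. Mice have a further beta chain, encoded by Csf2rb2, that is specific for IL-3. CSF3R binds G-CSF, the main growth factor of neutrophils, while KIT and FLT3 are best known on stem cells, mast cells and precursors of dendritic cells.

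The stretches of DNA before the start sites of Csf1, Csf2ra and Csf3r are shown because these genes were above background on both arrays and their windows could be searched for the letters bound by PU.1, the transcription factor central to myeloid receptor genes. They are RefSeq windows of 250 bases on build GRCm38.p6, read 5′ to 3′ on the gene's strand and ending at the base before the start. Capitals mark the PU.1 core GAGGAA and the C/EBP-like string TTGCNNCAA, searched on both strands. That string is not its own reverse complement and is not the C/EBP palindrome. The Csf1 window lies at chr3:107760470-107760719 (minus strand), the Csf2ra window at chr19:61228419-61228668 (minus strand) and the Csf3r window at chr4:126024409-126024658 (plus strand).
Csf1: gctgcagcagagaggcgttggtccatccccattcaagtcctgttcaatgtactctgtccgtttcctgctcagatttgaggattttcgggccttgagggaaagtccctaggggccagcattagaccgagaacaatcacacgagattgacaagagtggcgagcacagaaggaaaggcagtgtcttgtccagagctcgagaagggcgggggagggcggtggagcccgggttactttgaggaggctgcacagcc
Csf2ra: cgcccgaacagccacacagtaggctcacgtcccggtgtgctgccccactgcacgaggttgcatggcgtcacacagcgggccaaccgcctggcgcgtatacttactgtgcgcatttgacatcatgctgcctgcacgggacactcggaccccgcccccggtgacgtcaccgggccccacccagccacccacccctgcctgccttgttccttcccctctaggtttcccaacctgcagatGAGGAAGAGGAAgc
Csf3r: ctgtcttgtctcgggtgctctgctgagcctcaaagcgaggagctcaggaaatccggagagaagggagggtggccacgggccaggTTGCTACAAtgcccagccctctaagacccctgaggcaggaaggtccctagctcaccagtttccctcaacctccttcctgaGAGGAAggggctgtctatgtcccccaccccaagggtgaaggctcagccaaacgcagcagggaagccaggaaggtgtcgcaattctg
The PU.1 core occurred 2 times in the Csf2ra window, side by side and beginning 14 and 8 bases before the start, and 1 time in the Csf3r window, beginning 86 bases before it. Csf3r also held 1 match to TTGCNNCAA, beginning 166 bases before the start, and the Csf1 window held neither string. Such matches, or their lack, do not show whether a C/EBP site is present. Of 32851 RefSeq windows of the same length, 23.3% held the PU.1 core and 1.74% the string TTGCNNCAA. The PU.1 core is thus common by its letters alone. Windows were found for 6 of the 8 genes, but not for Csf1r or Csf2rb, which were also above background on both arrays. That of Kit held 1 PU.1 core, that of Csf2rb2 held 1, and that of Flt3 held 0. The Kit starts listed, 4 bases apart, gave the same counts. The Sp1 GC box GGGCGG, in 32.7% of all windows, occurred 2 times before Csf1 and 1 time each before Csf2ra and Kit. The AP-1 motif TGANTCA, the RUNX motif TGTGGT and the GATA motif AGATAA, in 6.75%, 14% and 9.99% of all windows, had 0 matches in the 6 genes. No matches to different motifs overlapped, and a match in letters is no evidence of binding.

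Of the 7 measured genes, 5 were above all background control probe sets on both arrays, and 1 of the 7 differed by at least 1.5-fold. Csf2rb was 1.70-fold lower in LysM(+) macrophages, Csf3r was 1.48-fold lower and Csf1 1.30-fold lower, while Csf2ra was 1.24-fold higher and Csf1r was 1.15-fold lower. Kit and Flt3 were at the level of background on both arrays. Counting asked for a gap of 1.5-fold or more, which is 0.58 on the log2 scale, and for the brighter of a gene's values to reach 6.12; this brightness floor is the median, over named probe sets, of the mean of the arrays. By that rule 1 gene was lower in LysM(+) and 0 were higher, of the 5 that reached the floor. Among all 10137 genes at the floor, 5.16% were counted lower and 10.9% higher, or 16.1% in either direction, so 1 in 5 is close to the general share. At 2-fold 0 of the 7 genes were counted, beside 4.1% of all genes at the floor (0.858% lower and 3.25% higher). Of all counted genes 67.9% were higher in LysM(+), a split that became 52.9% after quantile normalization of the columns. The median difference was -0.20 over the 7 genes and -0.38 over the 5 at the floor, beside -0.0062 over all genes and 0.07 over all genes at the floor.

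**Figure D1:**
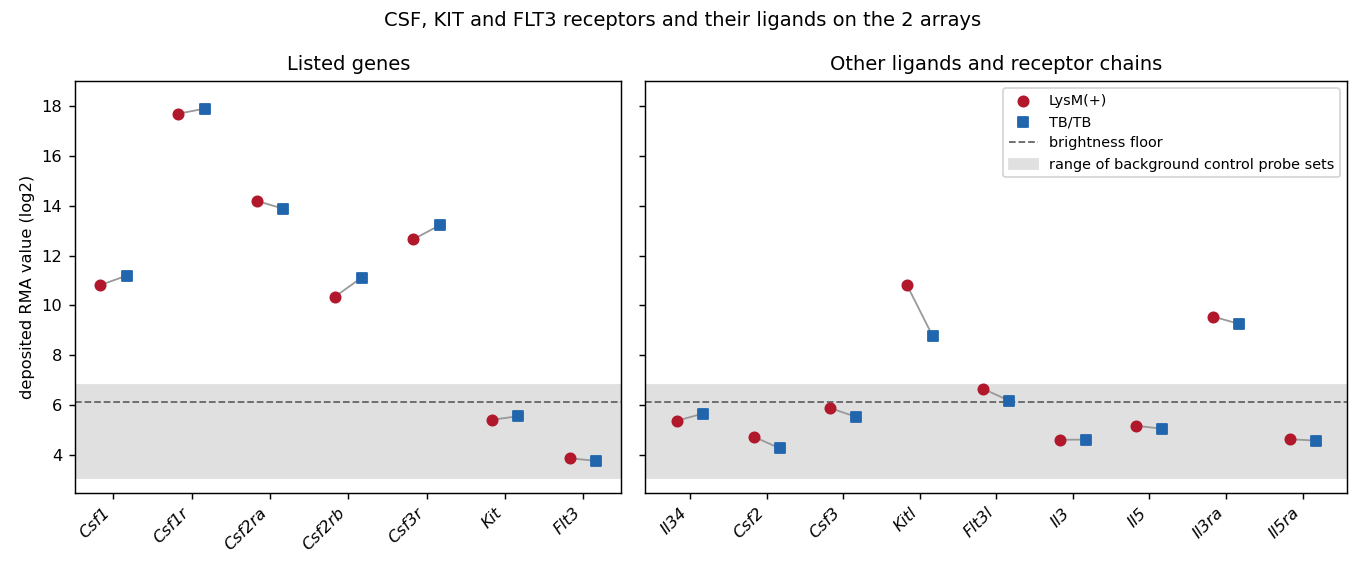
Deposited RMA values, read as log2, of the 7 measured genes, left, and of 9 related ligand and receptor chain genes, right. Each array has 1 point, with LysM(+) circles and TB/TB squares joined by a line. The dashed line is the brightness floor of 6.12 and the grey band spans the background control probe sets (3.09 to 6.81); Kit and Flt3 lie inside the band, and Kitl has the longest line. Heights of different genes are not comparable.

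The M-CSF axis came first, since the cultures lived on added M-CSF. Csf1r, the receptor gene, had log2 values of 17.69 in LysM(+) and 17.89 in TB/TB, a difference of -0.20. Both values stood far above the background control probe sets, which ran from 3.09 to 6.81. Of the 36 other genes whose brighter value was within 0.5 of that of Csf1r, 6 were at least as much lower in LysM(+), or 16.7%, so a difference of this size was not unusual at that brightness. Csf1, whose protein is M-CSF itself, had 10.81 in LysM(+) and 11.19 in TB/TB, a difference of -0.38. Among the 1080 genes of like brightness, 70 were at least as much lower, or 6.48%. Il34, the gene of the other CSF1R ligand, had 5.38 in LysM(+) and 5.67 in TB/TB, under the floor on both arrays and inside the background control range. Transcript of the cells' own M-CSF gene was thus measured on both arrays, and that of Il34 could not be told from background.

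The chains of the GM-CSF receptor differed in opposite directions. Csf2ra, the alpha chain that gives the receptor its specificity for GM-CSF, had 14.19 in LysM(+) and 13.88 in TB/TB, a difference of 0.31. Csf2rb, the common beta chain that carries the signal, had 10.35 in LysM(+) and 11.11 in TB/TB, a difference of -0.76, and was the 1 gene counted. Of 1097 genes of like brightness, 10 were at least as much lower in LysM(+), or 0.912%, while for Csf2ra 83 of 358, or 23.2%, were at least as much higher. The difference of Csf2ra exceeded that of Csf2rb by 1.07 on the log2 scale, or 2.10-fold, a contrast within the arrays that a constant shift of 1 array against the other cannot alter. It ran from 1.07 to 1.11 over the 4 other treatments of the values. Csf2rb and Csf2rb2 are closely related copies in mouse, so signal from Csf2rb2 transcripts in the Csf2rb probe set cannot be told apart here.

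Of the other genes that work with the common beta chain, Il3ra was above the background controls, and Il5ra, Csf2, Il3 and Il5 were not. Il3ra, the alpha chain of the IL-3 receptor, had 9.56 in LysM(+) and 9.26 in TB/TB, a difference of 0.29, in the same direction as Csf2ra. Il5ra, the alpha chain of the IL-5 receptor, had 4.64 in LysM(+) and 4.58 in TB/TB, inside the background control range. Csf2, which encodes the ligand GM-CSF, had 4.74 in LysM(+) and 4.27 in TB/TB. Il3 had 4.61 in LysM(+) and 4.62 in TB/TB. Il5 had 5.17 in LysM(+) and 5.06 in TB/TB. The ligand genes Csf2, Il3 and Il5 were thus not distinguishable from background, whereas Csf2ra, Csf2rb and Il3ra stood above it.

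Csf3r, the G-CSF receptor gene, lay just short of the 1.5-fold limit. Its values were 12.65 in LysM(+) and 13.22 in TB/TB, a difference of -0.57. Of 538 genes of like brightness, 16, or 2.97%, were at least as much lower in LysM(+). After quantile normalization or loess the difference was -0.65 or -0.64, past the limit, so the count of lower genes became 2. Csf3, the gene of its ligand G-CSF, had 5.89 in LysM(+) and 5.53 in TB/TB, under the floor on both arrays.

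Most neutrophil markers went the other way from the G-CSF receptor gene that neutrophils carry. Of 14 measured markers, 11 reached the floor, 6 were counted higher in LysM(+) and 0 lower, beside 10.9% and 5.16% of all genes at the floor, and the median difference of the 14 was 0.47. This list, like every list below, was chosen with earlier results of these data known. The general shares are therefore given for scale and are not an independent comparison. By any amount 11 of the 14 were higher and 3 lower; the myeloperoxidase gene Mpo, picked with its values in view, had 9.99 in LysM(+) and 10.29 in TB/TB, a difference of -0.30 in the direction of Csf3r. With both values required at the floor, 4 were counted higher, without Mmp9 and Cxcr2. The mean of the 14 log2 values was 9.43 in LysM(+) and 8.86 in TB/TB, and 3 of the 14 (Prtn3, Ctsg and Camp, named after their values were seen) were under the floor on both arrays. The lactoferrin gene Ltf had 9.69 in LysM(+) and 8.31 in TB/TB. Retnlg had 7.62 in LysM(+) and 6.29 in TB/TB, and the elastase gene Elane had 7.64 in LysM(+) and 6.46 in TB/TB. These TB/TB values of Retnlg and Elane were inside the background control range. The collagenase gene Mmp8 had 9.23 in LysM(+) and 8.25 in TB/TB, whereas Mmp9 and Cxcr2, higher by 1.15 and 0.71, were inside that range on both arrays. S100a8 and S100a9, abundant calcium-binding proteins of neutrophils and monocytes, differed by 0.29 and 0.51; they were picked with these values in view. The part of neutrophils in the Csf3r value was not tested. In bulk RNA such as this, fewer cells of a type and less RNA per cell cannot be told apart.

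**Figure D2:**
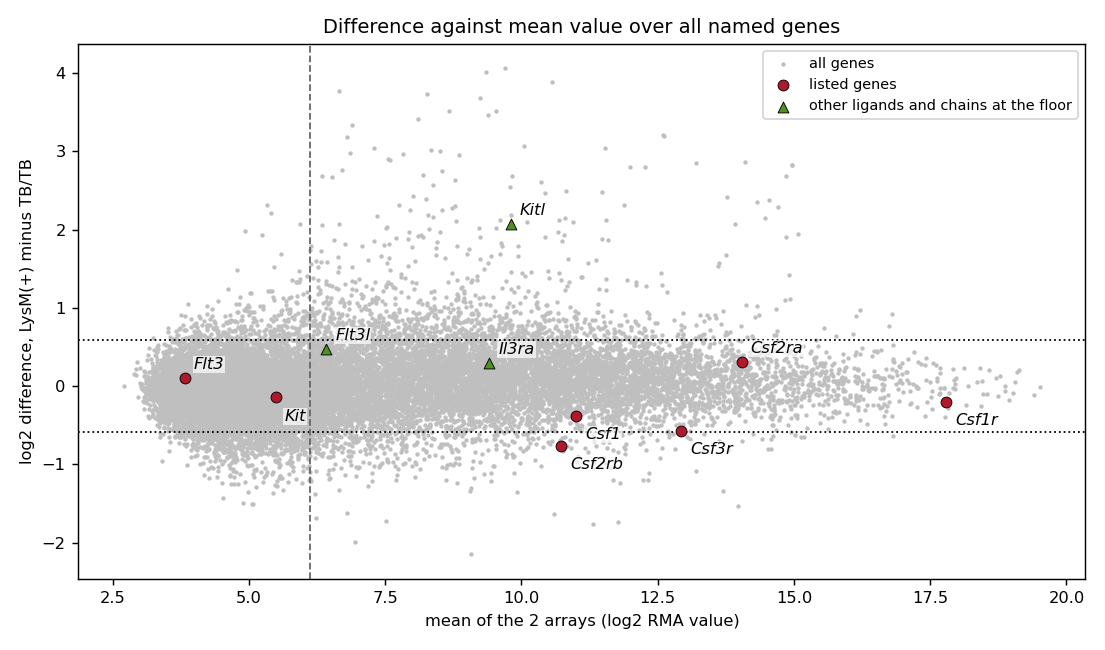
Difference LysM(+) minus TB/TB (log2) against the mean of the 2 arrays (log2) for 19505 genes in grey, with the 7 listed genes as red circles and Kitl, Flt3l and Il3ra as green triangles. Dotted lines mark 1.5-fold and the dashed line the brightness floor; Csf2rb lies under the lower dotted line, Csf3r just above it, and Kitl well over the upper one.

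KIT and FLT3, the receptors of early blood cells, gave no signal above background. Kit had 5.41 in LysM(+) and 5.56 in TB/TB, a difference of -0.15. Flt3 had 3.87 in LysM(+) and 3.77 in TB/TB, a difference of 0.10. All of these values were under the floor and inside the background control range, so neither expression nor a difference in it was detectable for these genes. The remaining receptor of the class that was measured, Pdgfrb, had 6.70 in LysM(+) and 6.34 in TB/TB, also inside that range. Mast cells keep KIT as they mature; of 13 mast cell and basophil markers, 12 were under the floor on both arrays. The exception was Hdc, the histamine-making enzyme gene, with 8.06 in LysM(+) and 8.65 in TB/TB. Hdc was counted lower, just past the limit at 1.51-fold, and 0 of these markers were counted higher, beside 5.16% and 10.9% of all genes at the floor. Of 9 haematopoietic progenitor markers 3 reached the floor, and 1 was counted higher and 0 lower, beside 10.9% and 5.16% of all genes at the floor. Procr, the endothelial protein C receptor gene, was that marker, with 7.61 in LysM(+) and 6.61 in TB/TB, the TB/TB value being inside the background control range. Dendritic cell markers had a median difference of -0.15 over 11 genes, of which 6 reached the floor and, against the same shares, 0 were counted higher and 1 lower. The lectin gene Clec10a, counted lower, had 7.97 in LysM(+) and 8.59 in TB/TB. At 2-fold 0 progenitor, dendritic cell or mast cell markers were counted.

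The largest difference in the whole ligand and receptor group belonged to the ligand of KIT. Kitl, which encodes stem cell factor, had 10.84 in LysM(+) and 8.76 in TB/TB, a difference of 2.07, or 4.21-fold. Both values were above the background controls. Kitl was the 1 gene counted among the 9 related ligands and receptor chains, of which 7 had a higher and 2 a lower value in LysM(+). Of the 9, 3 reached the floor, and 1 was counted higher and 0 lower, beside 10.9% and 5.16% of all genes at the floor. Its receptor gene Kit was at background, as given above. Flt3l, the ligand gene of FLT3, had 6.65 in LysM(+) and 6.18 in TB/TB, at the floor but inside the background control range. Stromal cells are a known source of stem cell factor and of M-CSF in marrow. Of 11 measured fibroblast and stromal cell markers, 6 reached the floor, and 0 were counted higher and 2 lower in LysM(+), beside 10.9% and 5.16% of all genes at the floor. The mean of the 11 log2 values was 6.38 in LysM(+) and 6.44 in TB/TB, while the median difference was 0.06, of the opposite sign, and 6 of the 11 had a higher value in LysM(+). The collagen gene Col1a2 had 8.54 in LysM(+) and 9.14 in TB/TB, and the matrix protein gene Postn had 6.88 in LysM(+) and 7.47 in TB/TB. Postn lay at the limit, and centring on the median difference left 1 marker counted lower. The part of stromal cells in the Kitl and Csf1 values was not tested.

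**Figure D3:**
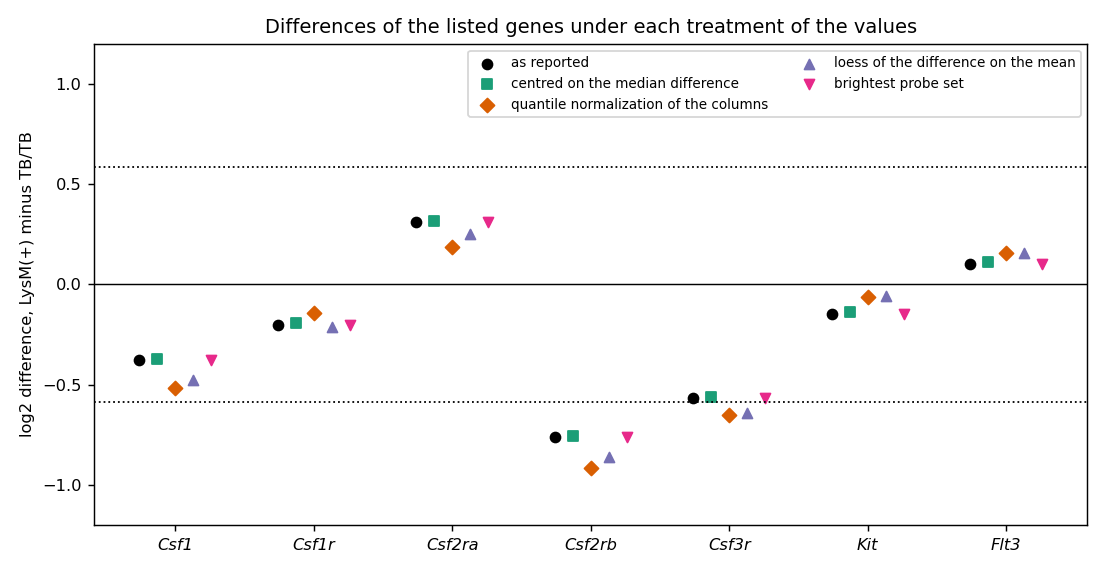
Differences LysM(+) minus TB/TB (log2) of the 7 measured genes as reported and under 4 other treatments of the values, 1 point each. Dotted lines mark 1.5-fold; every gene keeps its sign under all 5, Csf2rb stays past the lower line (-0.92 to -0.76), and Csf3r crosses it with quantile normalization and loess.

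Downstream of the receptors, few adaptor and kinase genes differed. Of 29 measured genes, 28 reached the floor, and 2 were counted higher and 2 lower in LysM(+), close to the 16.1% of all genes at the floor counted in either direction, with a median difference of -0.03. The number counted higher became 1 after quantile normalization or loess, which took Pik3cb under the limit. Fyn, a SRC-family kinase gene, had 9.16 in LysM(+) and 8.32 in TB/TB, and Pik3cb, a catalytic subunit of phosphoinositide 3-kinase, had 12.45 in LysM(+) and 11.85 in TB/TB. Gab1, a docking protein gene, had 8.57 in LysM(+) and 9.32 in TB/TB. Pik3cd, the catalytic subunit most typical of leukocytes, had 8.46 in LysM(+) and 9.08 in TB/TB. Of the list as written, 10 further genes were not analysed here.

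Among genes that restrain these receptors, the counted ones were higher in LysM(+). Of 26 measured negative regulators, 20 reached the floor, 5 were counted higher in LysM(+) and 0 lower, beside 10.9% and 5.16% of all genes at the floor. The number counted higher became 2 after quantile normalization, which took Dok2, Spred1 and Dusp6 under the limit, 3 after loess, which took Spred1 and Dusp6 under it, and 0 at 2-fold. The median difference was 0.12. Spred2 and Spred1, which dampen RAS and MAP kinase signalling, had differences of 0.92 and 0.60. Stap1, an adaptor known to bind KIT, had 13.32 in LysM(+) and 12.54 in TB/TB. Dok2, an adaptor that recruits RAS inhibitors, had 14.99 in LysM(+) and 14.34 in TB/TB. Dusp6, a phosphatase that acts on ERK and that ERK signalling induces, had 10.33 in LysM(+) and 9.71 in TB/TB.

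Genes known to answer to M-CSF in macrophages included some of the larger differences. Of 18 measured early and mid-G1 response genes, 17 reached the floor, and 5 were counted higher in LysM(+) and 0 lower, beside 10.9% and 5.16% of all genes at the floor, with a median difference of 0.19. Because the list was chosen with earlier results of these data known, its excess over those shares is description only. After quantile normalization 1 was counted lower, Ier3 at -0.59, named after its value was seen. The urokinase gene Plau had 11.87 in LysM(+) and 9.72 in TB/TB, and the immediate-early factor gene Fos had 12.00 in LysM(+) and 9.90 in TB/TB. Myc, the growth factor-induced transcription factor gene, had 12.18 in LysM(+) and 10.57 in TB/TB. Ets2, a factor gene that M-CSF signalling activates, had 8.32 in LysM(+) and 6.76 in TB/TB, the TB/TB value being inside the background control range. Srm, the spermidine synthase gene, had 10.39 in LysM(+) and 9.05 in TB/TB. The differences of these 5 genes, of 1.34 to 2.15, stood beside a Csf1r difference of -0.20. All other measured genes of the list differed by less than 1.5-fold, and 4 of the 18 had a lower value in LysM(+). Most of the list thus showed little difference.

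Cell cycle genes were higher throughout in the same array: all 24 measured were counted higher, beside 10.9% of all genes at the floor, with a median difference of 1.92 and a range of 0.84 to 4.06. They too were listed with earlier results of these data known, so the count is description only. Of the 24, 17 were above the background control range on both arrays, and 22 were counted when both values had to reach the floor. That stricter rule left out Cdk1 and Bub1, the latter named after its value was seen. The proliferation marker Mki67, named after its value was seen, had 13.66 in LysM(+) and 10.86 in TB/TB. What part the state of division of the cultures had in the values of the receptor and ligand genes was not tested. Macrophage markers served as a check of the cell type. All 12 measured were above the floor on both arrays, which is what the check rests on. Of the 12, 0 were counted in either direction, beside 16.1% of all genes at the floor, and the median difference was -0.16. With so few genes, a count of 0 is not far from that share. Quantile normalization or loess made 1 counted lower, the apoptotic cell receptor gene Mertk at -0.68 or -0.65, named after its value was seen.

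**Figure D4:**
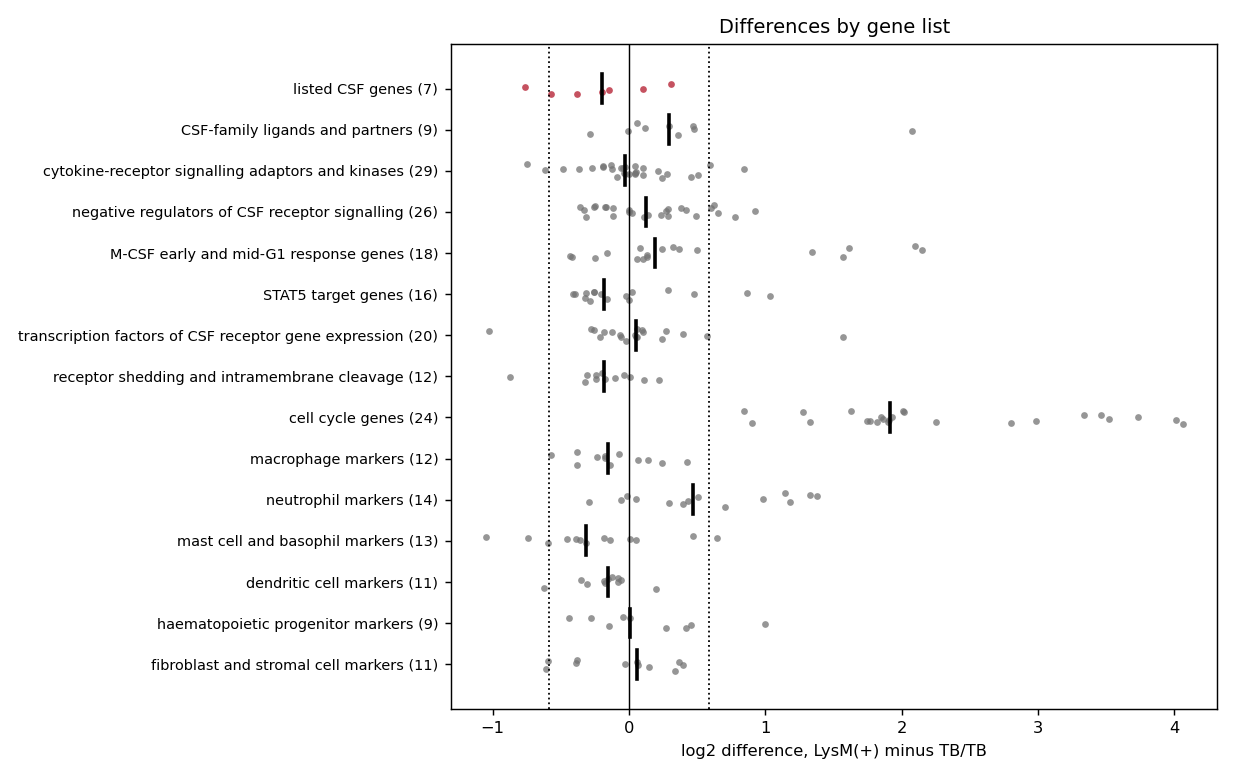
Differences LysM(+) minus TB/TB (log2) of the 7 listed genes, red, and of the genes of 14 other lists, grey, with the number measured in brackets and the list's median as a black bar. Dotted lines mark 1.5-fold; the cell cycle list lies wholly to the right of the upper one, and the median of the listed genes is -0.20.

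STAT5 target genes, which answer to GM-CSF and IL-3 through the common beta chain, did not share 1 direction. Of 16 measured, 12 reached the floor, and 2 were counted higher in LysM(+) and 0 lower, beside 10.9% and 5.16% of all genes at the floor; at 2-fold 1 was counted, Bcl6. The median difference of the 16 was -0.19, but 8 of them, 6 with a lower value in LysM(+), were inside the background control range on both arrays. Of the 8 above that range on both arrays, 4 had a higher and 4 a lower value, with a median difference of 0.13. Bcl2, a survival gene, had 8.59 in LysM(+) and 7.72 in TB/TB. Bcl6, a repressor gene that STAT5 is known to hold down in lymphocytes, had 10.98 in LysM(+) and 9.94 in TB/TB.

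Transcription factor genes that act on CSF receptor genes had a median difference of 0.05 over 20 measured, of which 15 reached the floor. Ets2 was counted higher and Gfi1 lower, 1 gene each way, beside 10.9% and 5.16% of all genes at the floor. Gfi1, the gene of a transcriptional repressor that granulocyte development needs, had 5.60 in LysM(+) and 6.62 in TB/TB. Both Gfi1 values were inside the background control range, and it was no longer counted when both values had to reach the floor or when the highest background control was the floor. The machinery that cuts CSF1R from the surface and within the membrane had a median difference of -0.19 over 12 measured genes, of which 11 reached the floor. Beside 10.9% and 5.16% of all genes at the floor, 0 were counted higher and 1 lower, and at 2-fold 0 were counted. The gene counted lower was Aph1c, a subunit of gamma-secretase, with 11.47 in LysM(+) and 12.34 in TB/TB; its copy Aph1b, whose transcripts are similar in sequence and whose value was named after it was seen, differed by -0.32.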

How the data were processed

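RNA from 2 mouse bone marrow macrophage cultures was measured on 1 array each. The authors deposited log2 expression values per probe set, made with RMA; the submitters' processing notes name Affymetrix Expression Console. Neither versions nor the log base are stated in these sources, and base 2 was taken from the method's name. The highest value on either array was 19.5, high for RMA, so folds depend on that reading. Of 28846 probe sets, 19572 had 1 gene symbol, all matched by Entrez ID to RefSeq symbols of GRCm38.p6; probe sets of 1 gene were averaged, and each measured member had 1. Counting (1.5-fold, brightness floor 6.12) was checked on simulated data with Python 3.11.15 and pandas 2.3.3. The planted differences were 2-fold or more, in genes well above the floor. Recovery of differences near 1.5-fold, such as those of Csf2rb and Csf3r, was therefore not checked. With 1 array per group no test was possible, and precision is limited by the number of arrays. The genes named are the 8 members, all ligands and partner chains, the PDGF receptor class, and up to 6 counted genes of each of 15 lists; others are said to have been named after their values were seen. Members and lists were chosen with earlier results of these data known. Alternatives were centring, quantile normalization, loess (span 0.4, statsmodels 0.14.6), the brightest probe set, other floors and a 2-fold limit.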

Additional observations from a re-analysis of the deposited data

How the results depend on the processing

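The signs of the 7 measured genes held under centring, quantile normalization, loess and the brightest probe set, and 26 of 28 recomputed differences stayed on the same side of 1.5-fold and within 0.2 of the reported value. The exceptions were Csf3r with quantile normalization (-0.65) and with loess (-0.64), each of which made 2 genes counted lower in place of 1; the cause was not tested. Csf1r ran from -0.21 to -0.14, Csf1 from -0.52 to -0.37, Csf2ra from 0.19 to 0.32, and Kitl from 1.93 to 2.08. With a 2-fold limit, 0 of the 7 genes were counted lower. The genes counted in the pathway lists (123 genes, cell cycle left out) became 7 higher and 1 lower, against 15 and 4 at 1.5-fold, because fewer differences pass a stricter limit. Among all genes at the floor 3.25% were higher and 0.858% lower at 2-fold, against 10.9% and 5.16% at 1.5-fold. Not all of the 123 reached the floor, and more higher than lower counts were thus the general case on these arrays. Over all genes at the floor, 1106 were counted higher and 523 lower, against 818 and 729 after quantile normalization and 329 and 87 at 2-fold. Of 240 recomputed list counts 26 changed, 21 of them by over 1.5 times or to or from 0; most came from the 2-fold limit or another floor, and those from another scaling are given with their lists. At 2-fold the M-CSF response count stayed at 5 higher, cell cycle genes became 22 and neutrophil markers 4. Of the medians of the 15 lists none moved by over 0.2 (0 of 60). No paired analysis was possible because each group has 1 array and no result comes from a test. Signal near background limits Kit, Flt3 and most ligand genes: a difference there was not detectable.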
